A study of Mus musculus with 16 samples.

Results

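The subject here is how far the response of mouse peritoneal macrophages to oxidised low-density lipoprotein (ox-LDL) differed between high and low glucose medium. For every gene the ox-LDL effect in low glucose (L_O minus L_C) was subtracted from the effect in high glucose (H_O minus H_C), on the log2 scale, and the result is called the difference of differences. All 16 of 16 libraries of the series enter it, 4 in each group. The cells were macrophages of wild-type C57BL/6 mice aged 8 weeks, drawn into the peritoneal cavity with 6% starch, and every group was cultured for 48 h. L_C cells had low glucose medium with 27.5 mM mannitol, an inert sugar alcohol that balances osmotic strength. L_O cells had low glucose medium with ox-LDL, H_C cells had medium with 33 mmol/L glucose, and H_O cells had both glucose at that level and ox-LDL. The labels state 50 mg/ml ox-LDL, and that unit may be wrong. The label of L_O names no mannitol, so in low glucose the addition of ox-LDL and the absence of mannitol cannot be told apart, and whatever mannitol did is part of every difference of differences below. The labels do not say whether the 4 libraries of a group came from separate animals or cultures, so a p-value here reflects the spread among these libraries alone, and that spread may be technical.

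Macrophages take up ox-LDL through scavenger receptors such as Cd36 and Msr1, and its lipids act on nuclear receptors: oxidised fatty acids on the PPAR family and oxysterols on the LXR family, which drives cholesterol export through Abca1 and Abcg1. Its electrophilic products release NRF2, a transcription factor for antioxidant genes. Loaded macrophages, called foam cells, line atherosclerotic plaques, and diabetes, in which glucose is high, speeds that disease.

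The deposited counts were 32596640 to 41712885 per library. L_C replicate 4 stood apart: mitochondrial genes took 3.71% of its counts against 1.48 to 2.30% in the other 15 libraries, and ribosomal protein genes 1.47% against 1.73 to 2.04%. Each result is given with all 16 libraries and, where it changes the call, without it. H_O replicate 2 was the highest of its group for many genes induced by interferon gamma, among them the guanylate-binding protein Gbp2, at 62.2 CPM (the count-based level of edgeR, relative to the TMM-scaled library total) against 29.6 to 38.4 CPM in the other H_O libraries. The label macrophage fitted the markers: the mean level over all libraries was 14799 CPM for Lyz2, 1683 CPM for Cd68, 727 CPM for Csf1r and 461 CPM for Adgre1. The 8 B cell markers in the table summed to 0.970 to 2.44 CPM per library, and Gata6, the factor of resident large peritoneal macrophages, averaged 3.81 CPM.

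Very few genes passed a test of whether the ox-LDL effect differed between the media. Of 13527 genes and unannotated regions tested, the difference of differences passed an adjusted p of 0.05 for 2 (0.0148%) with all libraries, 1 higher (0.00739%) and 1 lower (0.00739%). "Adjusted p" means throughout the two-sided quasi-likelihood F test of edgeR with Benjamini-Hochberg adjustment over all tested entries. The gene that was higher, so that its ox-LDL effect was more positive in high glucose, was Ccr1. The gene that was lower was Gas6. At an unadjusted p under 0.05 there were 729 higher (5.39%) and 432 lower (3.19%).

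The separate ox-LDL comparisons, which share no library, passed the threshold for 3490 entries in low glucose (25.8%; 12% higher and 13.8% lower) and 2962 in high glucose (21.9%; 10.4% higher and 11.5% lower). Of these, 2173 passed in both media, which is 62.3% of the first set and 73.4% of the second. Their signs matched for 2168 and differed for 5. Among the 961 that rose in both media the median log2 effect was 0.38 in low and 0.36 in high glucose. Among the 1207 that fell in both, the medians were -0.48 and -0.43. Both sets were chosen for passing in both media with the same sign, which favours similar medians. Entries that passed in 1 medium only are left out of them. Across all tested genes, which are not independent replicates, Pearson's r between the effects was 0.495, and 0.448 without L_C replicate 4. For the 5199 genes with an average log2 CPM of 5 or more, 98.7% had a difference of differences smaller than 0.5 in size and 10 had one of 1 or more. The median standard error of those 5199 genes was 0.089. The limit of 0.5 exceeds the median ox-LDL effects above, so this share does not measure how alike the effects were.

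**Figure D1:**
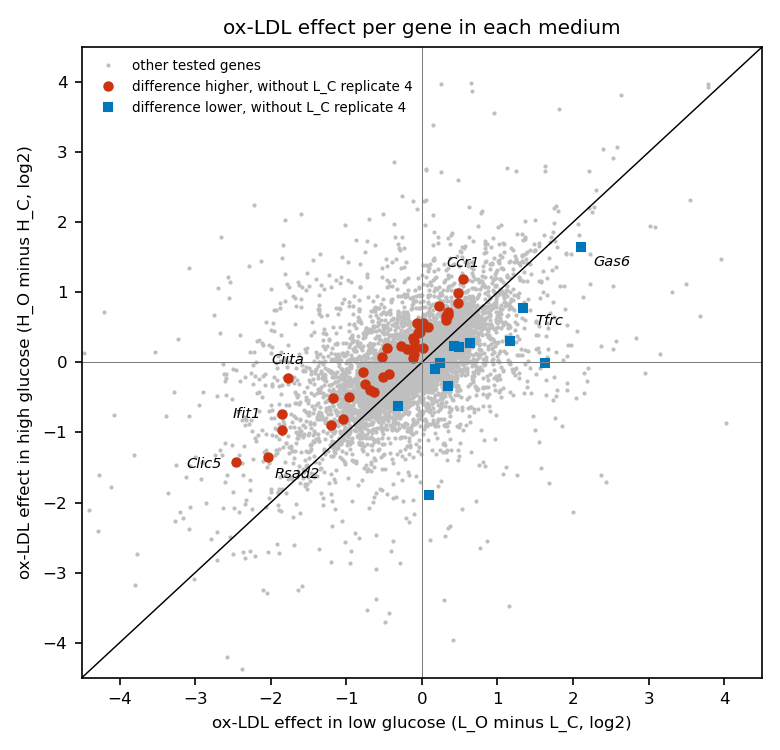
Log2 effect of ox-LDL in low glucose (horizontal axis) and in high glucose (vertical axis) for every tested gene, estimated from all 16 libraries; 32 genes lie outside the axes. Red circles and blue squares are genes whose difference of differences passed the threshold without L_C replicate 4; the circles, Ccr1 among them, lie above the diagonal of equal effect and the squares, with Gas6, below it.

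Gas6 encodes a secreted ligand that bridges dying cells to the receptors Axl, Mertk and Tyro3 for engulfment, and lies on chromosome 8 at 13465374 to 13494490 on the minus strand (mm10). Its levels in the L_C libraries were 61.2, 61.5, 60.9 and 70.5 CPM, and in L_O 260.5, 274.5, 291 and 269 CPM. In high glucose they were 108, 112, 105 and 110 CPM in H_C and 353, 327, 347 and 333 CPM in H_O. The 4 groups did not overlap: ox-LDL raised the gene in both media, and each high glucose group lay above its low glucose partner. The rise was 4.31-fold in low glucose and 3.13-fold in high glucose. The difference of differences was -0.46 ± 0.072 (log2, standard error; 95% interval -0.61 to -0.31), with an adjusted p of 0.0381 (edgeR). Without L_C replicate 4, the highest library of its group, it was -0.51 with an adjusted p of 0.000187 (edgeR). This is a statement about ratios. In CPM the ox-LDL increment was 21.4 CPM larger in high glucose, as H_C started higher than L_C. The comparisons of glucose at a fixed ox-LDL state, which share these libraries, gave 0.77 for H_C against L_C and 0.31 for H_O against L_O.

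Ccr1, a receptor for the chemokines Ccl3, Ccl5 and Ccl6 that recruits monocytes, lies on chromosome 9 at 123962124 to 123968692 on the minus strand. Its levels were 74.6, 75.2, 85.6 and 87.3 CPM in L_C and 130.0, 120.0, 116 and 103 CPM in L_O. They were 45.0, 45.9, 48.6 and 45.8 CPM in H_C and 98.9, 116, 102 and 106 CPM in H_O. H_C was the lowest group, without overlap, while H_O and L_O overlapped. The rise with ox-LDL was 1.45-fold in low glucose and 2.28-fold in high glucose, a difference of differences of 0.65 ± 0.10 (95% interval 0.44 to 0.86) with an adjusted p of 0.0381 (edgeR). The comparison of H_C with L_C, which shares libraries with this one, gave -0.80, and that of H_O with L_O gave -0.15 with an adjusted p of 0.245 (edgeR). Ccl6, a ligand of this receptor, had a difference of differences of 0.52 ± 0.14, which did not pass (adjusted p = 0.191, edgeR).

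Both calls sat close to the threshold. Over 25 alternative analyses the estimates stayed between -0.51 and -0.43 for Gas6 and between 0.59 and 0.70 for Ccr1, and each gene passed in 11 of them, with the highest adjusted p at 0.146. Leaving out L_C replicate 1, L_C replicate 4, L_O replicate 1 or H_C replicate 3 kept both calls, and leaving out any of the other 12 libraries ended both, with no gene left past the threshold.

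**Figure D2:**
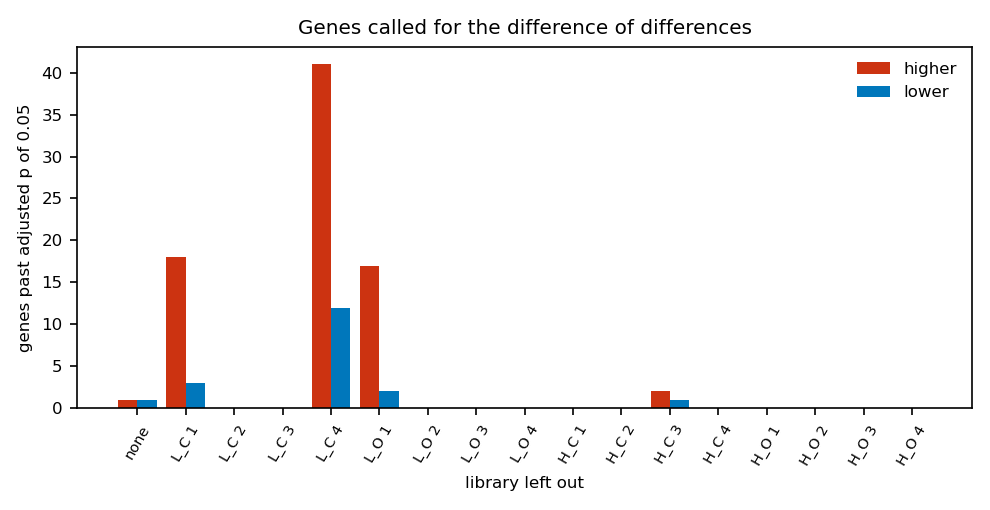
Number of genes past an adjusted p of 0.05 for the difference of differences (vertical axis) when each library in turn is left out (horizontal axis); red bars are higher genes, blue bars lower ones. The counts reach 41 and 12 without L_C replicate 4, 18 and 3 without L_C replicate 1, 17 and 2 without L_O replicate 1, and are 0 for 12 of the libraries.

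Without L_C replicate 4, 53 of 13734 entries passed (0.386%), 41 higher (0.299%) and 12 lower (0.0874%). Gas6 and Ccr1 were among them. All 53 had the same sign with 16 libraries, and 51 had an unadjusted p under 0.05 there. Both fits share 15 libraries, so this agreement was largely fixed in advance and is no separate support. The 51 that passed only without L_C replicate 4 had adjusted p-values from 0.0774 to 0.885 with it (edgeR). Their estimates moved little, by a median of 0.049 in size, while the median standard error of the 53 fell from 0.10 to 0.081. On the CPM scale 52 of the 53 kept their sign, Gas6 being the exception. Glucose comparisons at a fixed ox-LDL state share these libraries. Of the 41 higher entries, 22 were called lower in H_C than in L_C and not called for H_O against L_O. Another 6 were lower in H_C and higher in H_O, 5 were lower in both and 2 higher in both. The other 6 were called for H_O against L_O alone, as higher. Only the L_C label names mannitol, and its part was not tested. Of the 53, 50 have an informative gene symbol and 3 are predicted genes or unannotated regions. Most of the names that follow were chosen after the values were seen, and unless said otherwise the calls in the next paragraphs are those without L_C replicate 4.

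**Figure D3:**
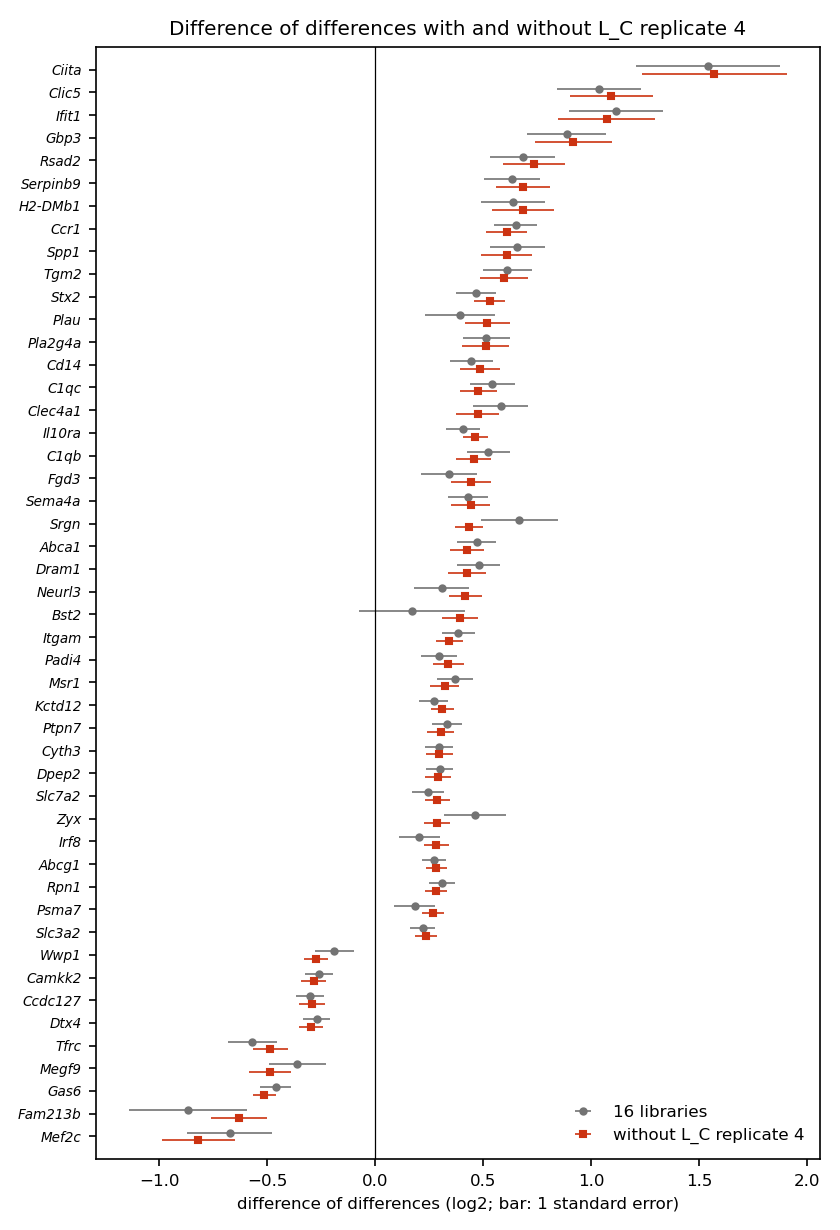
Difference of differences (log2, horizontal axis) of the named genes past the threshold without L_C replicate 4, with all 16 libraries (grey circles) and without that library (red squares); bars are 1 standard error. Estimates lie on the same side of 0 in both fits, and the low-count gene Thbs3 is among the genes not drawn.

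The higher genes include several induced by interferons, the cytokines that alert cells to infection. Ox-LDL lowered Rsad2 (viperin), Ifit1 and Gbp3 in both media, and the fall was smaller in high glucose. These genes are commonly driven through the interferon-stimulated response element, searched here on both strands as the letters GAAA, any 2 bases and GAAA again. It was found in the window from 250 bases before to 50 bases after a start site for 7 of 31 higher genes with a window in RefSeq (22.6%): Gbp3, Spp1, Bst2, Srgn, Rsad2, Serpinb9 and Ifit1. Among 9858 tested genes with a window the share was 4.03%, and none of 7 lower genes had a match. The other motifs searched differed less: the gamma-activated sequence motif (TTC, any 3 bases, GAA) was in 6.45% of the higher and 8.36% of the tested genes, the AP-1 motif (TGA, any 1 base, TCA) in 12.9% and 6.30%, and the E-box CACGTG in 9.68% and 11.7%. These shares describe letters, not binding. The stretches from 170 to 21 bases before the start site are shown for the 3 genes because they carry matches, in capitals, and their ox-LDL effects differed between media (GRCm38.p6, RefSeq; chr12:26456473-26456622 minus strand, chr19:34640719-34640868 plus strand, chr3:142559874-142560023 plus strand). All matches here lie on the opposite strand, so they read TTTC first, and the Gbp3 matches overlap.
Rsad2: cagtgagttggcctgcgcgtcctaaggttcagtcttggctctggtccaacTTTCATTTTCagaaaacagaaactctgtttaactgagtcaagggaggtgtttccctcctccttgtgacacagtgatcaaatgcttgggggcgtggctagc
Ifit1: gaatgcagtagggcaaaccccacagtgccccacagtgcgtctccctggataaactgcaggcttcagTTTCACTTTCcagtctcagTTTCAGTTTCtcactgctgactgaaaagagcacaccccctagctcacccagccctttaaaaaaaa
Gbp3: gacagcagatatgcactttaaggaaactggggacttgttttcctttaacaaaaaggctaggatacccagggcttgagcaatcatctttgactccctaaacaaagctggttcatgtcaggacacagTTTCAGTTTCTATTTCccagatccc

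Rsad2, an antiviral enzyme that makes a chain-terminating nucleotide, stood at 88.5, 110, 91.9 and 82.9 CPM in L_C and 27.9, 21.3, 19.9 and 22.3 CPM in L_O. In high glucose it stood at 34.9, 43.3, 41.3 and 46.5 CPM in H_C and 15.8, 16.5, 15.6 and 17.1 CPM in H_O. No groups overlapped, and L_C was the highest by far. The difference of differences was 0.73 with an adjusted p of 0.0384 (edgeR), against 0.68 and 0.112 with 16 libraries. Gbp3, a guanylate-binding protein of the defence against intracellular pathogens, had 101, 125, 107 and 102 CPM in L_C and 38.0, 32.3, 24.6 and 25.9 CPM in L_O. Its values were 42.9, 49.7, 57.9 and 54.7 CPM in H_C and 23.5, 31.3, 26.5 and 24.1 CPM in H_O, so that the ox-LDL groups overlapped while the groups without ox-LDL did not. Its difference of differences was 0.92 (adjusted p = 0.0384, edgeR). Ifit1, which binds viral RNA, had 1.07 at a lower level, with at most 17.9 CPM in any library. Bst2 (tetherin) had 0.39, but 0.17 with 16 libraries: L_C replicate 4 read 36.7 CPM and the other L_C libraries 77.7 to 88.8 CPM.

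As a group, the 35 tested antiviral interferon genes had a median difference of differences of 0.30 with 16 libraries, beside 0.0084 over all tested genes, and 30 were above 0. None passed with 16 libraries, and 3 higher did without L_C replicate 4. The 19 interferon-induced GTPases (guanylate-binding proteins and immunity-related GTPases) had a median of 0.89, with all 19 above 0. Of them 15 were higher at an unadjusted p under 0.05, beside 5.39% of all entries. The lists were written with earlier results of these data known, so such counts describe and do not test them. None of them passed with 16 libraries, and Gbp3 alone did without L_C replicate 4. The ox-LDL effect itself called 18 of the 19 lower in low glucose, beside 13.8% of all entries, and 6 lower in high glucose, beside 11.5%. Counts past a threshold do not compare effects. The median ox-LDL effect of the list was -1.51 in low and -0.59 in high glucose. Without H_O replicate 2 the median difference of differences of the list was 0.68, and for Gbp2 the estimate went from 1.33 to 1.06. Other libraries stood out too. The 19 genes summed to 2139 CPM in L_C replicate 2, against 1387 to 1756 CPM in the rest of L_C. Their sum in L_O replicate 1 was 790 CPM, against 493 to 562 CPM in the rest of L_O. Without L_O replicate 1, Gbp2 and Gbp7 passed, at adjusted p-values of 0.0492 and 0.0497 (edgeR).

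Among MHC class II genes, which present antigen to helper T cells, Ciita and H2-DMb1 passed. Ciita, their master coactivator on chromosome 16 (10480059 to 10528418, plus strand), had 40.7, 58.0, 43.9 and 43.6 CPM in L_C and 19.1, 13.9, 11.2 and 10.5 CPM in L_O. It had 19.0, 21.2, 21.3 and 20.5 CPM in H_C and 12.6, 29.1, 17.4 and 11.03 CPM in H_O. In low glucose the groups were apart, and in high glucose they overlapped, with H_O replicate 2 the highest. The ox-LDL effect was -1.80 in low and -0.23 in high glucose, a difference of 1.57 ± 0.33 (adjusted p = 0.045, edgeR). With 16 libraries the difference was 1.54 (adjusted p = 0.105, edgeR), and with H_O replicate 2 left out in place of L_C replicate 4 it was 1.18. H2-DMb1, a chain of the H2-DM peptide loader, had 0.68 (adjusted p = 0.045, edgeR), although 22.7% of its 50-base words also occur in other genes and its count may be shared with them.

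All 13 tested class II genes lay above 0, with a median of 0.87, or 0.74 without H_O replicate 2. None of these 13 passed with 16 libraries, and Ciita and H2-DMb1 passed without L_C replicate 4. The invariant chain Cd74 had 2923, 3430, 2715 and 4205 CPM in L_C, 1081, 985, 865 and 821 CPM in L_O, 1929, 2017, 2173 and 2111 CPM in H_C, and 903, 1582, 1121 and 889 CPM in H_O. Ox-LDL lowered it in both media without overlap. With 16 libraries its difference of differences was 0.95 ± 0.22 with an adjusted p of 0.118 (edgeR), and it did not pass without L_C replicate 4 (0.0833, edgeR). Markers of dendritic cells and B cells, which could bring such RNA, were low. The 8 dendritic cell markers in the table summed to 9.52 to 14.7 CPM in L_C, 4.26 to 6.89 CPM in L_O, 6.22 to 16.5 CPM in H_C and 7.74 to 11.4 CPM in H_O. The highest H_C value was that of replicate 3. Most of this sum was Fscn1, with a mean of 5.71 CPM over all libraries, and 7 of the 8 averaged under 1 CPM. The B cell markers summed to 2.02 to 2.42 CPM in L_C, 0.970 to 2.01 CPM in L_O, 1.65 to 2.44 CPM in H_C and 1.501 to 2.02 CPM in H_O. The 14 small peritoneal macrophage and monocyte genes were higher. They summed to 1263 to 1303 CPM in L_C and 677 to 728 CPM in L_O. In H_C the sum was 992 to 1032 CPM, and in H_O 619 to 664 CPM. Among them Itgax had a mean of 508 CPM over all libraries. The part of any of these cells in the differences was not tested. As in any bulk sample, fewer cells of a type and less RNA per cell cannot be told apart.

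**Figure D4:**
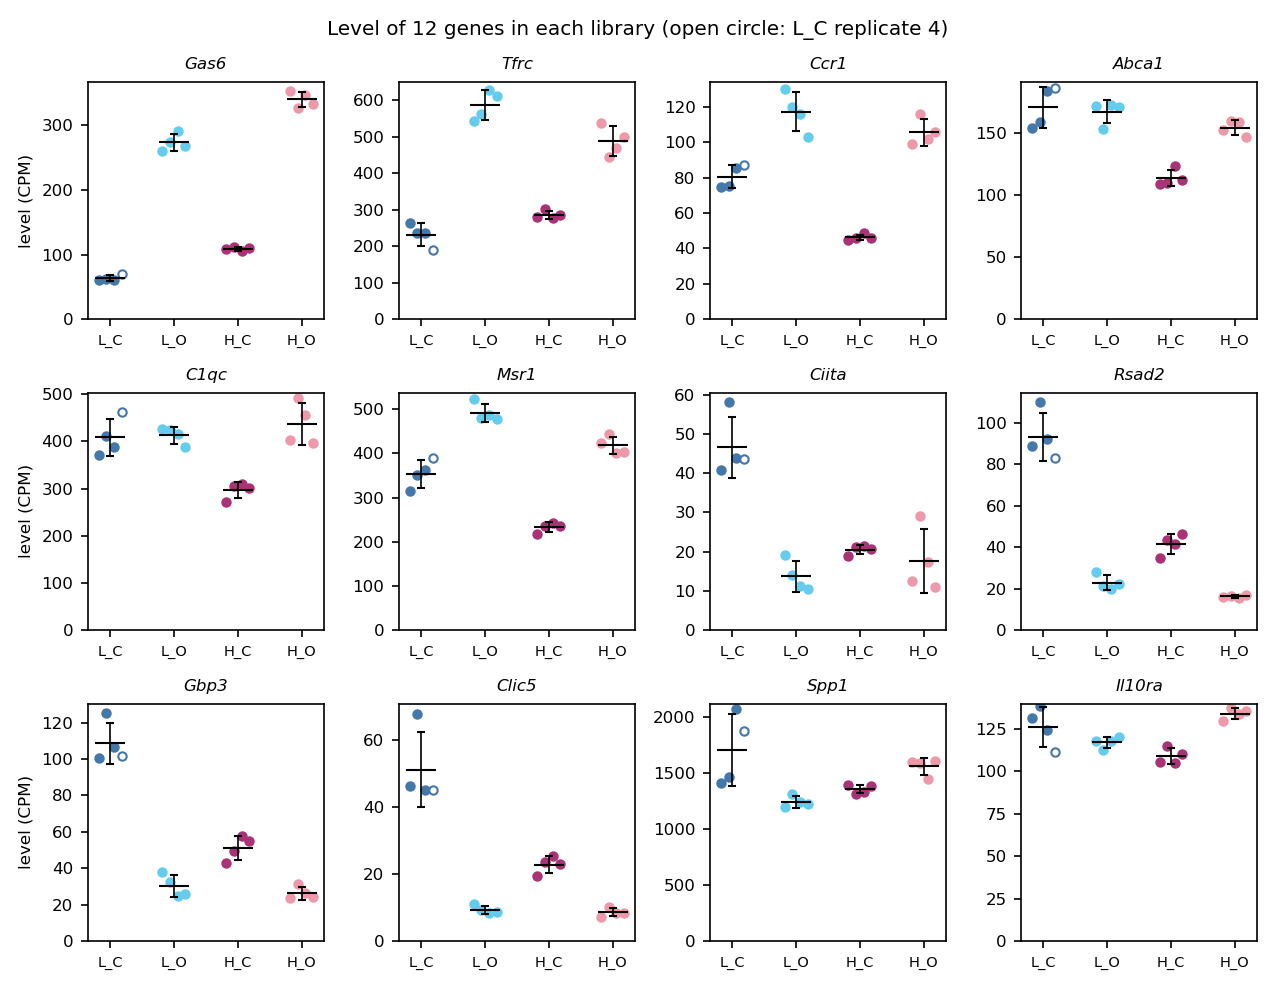
CPM of 12 genes (vertical axes, from 0) in each library of the 4 groups; bars are the mean and SD of 4 libraries, and the open circle is L_C replicate 4. In the lower rows Ciita, Rsad2, Gbp3 and Clic5 are highest in L_C, while for Gas6 and Tfrc both ox-LDL groups lie above both others.

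A second set of higher genes rose with ox-LDL in high glucose and did not pass in low glucose (7 genes; of all entries 14.3% rose and 14.6% fell in high glucose). They include C1qb and C1qc, chains of the complement protein that tags debris for removal, the cholesterol exporter Abca1, Sema4a, a semaphorin that acts on T cells, and Serpinb9, an inhibitor of granzyme B. The others were Rpn1, an oligosaccharyltransferase subunit, and the proteasome subunit Psma7. C1qc had 372, 412, 388 and 462 CPM in L_C, 427, 424, 415 and 387 CPM in L_O, 271, 305, 310.5 and 300.5 CPM in H_C, and 403.5, 493, 455 and 397 CPM in H_O. H_C lay below the 3 other groups, which overlapped. The difference of differences was 0.48 for C1qc (adjusted p = 0.0246, edgeR) and 0.46 for C1qb (adjusted p = 0.0239, edgeR). C1qa, the remaining chain, had 0.51 but did not pass (adjusted p = 0.082, edgeR).

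Abca1 is the LXR target that moves cholesterol onto apolipoprotein A-I. It stood at 154, 159, 184 and 186 CPM in L_C and 171, 153, 173 and 171 CPM in L_O, groups that overlapped. In high glucose it stood at 109, 110.1, 123.5 and 112.5 CPM in H_C and 152, 160, 159 and 147 CPM in H_O, without overlap. Its difference of differences was 0.42 (adjusted p = 0.0315, edgeR), against 0.47 and 0.0774 with 16 libraries. Abcg1, which passes cholesterol to high-density lipoprotein, fell in both media, by 0.45 in low and by 0.16 in high glucose on the log2 scale, a difference of 0.28 (adjusted p = 0.0234, edgeR). The 14 tested LXR targets had a median of 0.22 with 16 libraries, with 12 above 0. None of these passed with 16 libraries, and Abca1 and Abcg1 passed without L_C replicate 4.

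For 5 higher genes the ox-LDL effect was called in opposite directions without L_C replicate 4, a fall in low glucose and a rise in high glucose. They include Stx2, a syntaxin of membrane fusion, Il10ra, the interleukin 10 receptor chain, Kctd12 and the amino acid transporter chain Slc3a2. With 16 libraries the fall in low glucose passed for none of these named genes. Its adjusted p (edgeR) was 0.223 for Stx2, 0.176 for Il10ra, 0.0855 for Kctd12 and 0.0748 for Slc3a2. Il10ra had 131, 138, 124 and 111 CPM in L_C, 118, 112.5, 118 and 120.2 CPM in L_O, 106, 115, 105 and 110.3 CPM in H_C, and 129.5, 137.5, 134 and 136 CPM in H_O. The high glucose groups were apart, and the low glucose groups overlapped through L_C replicate 4. Its difference of differences was 0.46 (adjusted p = 0.00136, edgeR), and that of Stx2 was 0.53 (adjusted p = 0.003, edgeR). These shifts are small, and 62.8% of the exonic bases of Kctd12 are overlapped by a gene on the other strand, whose reads cannot be told apart without strand-specific counting.

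With 16 libraries, 5 entries passed the threshold in both media with opposite signs, among them Ptprs, Slamf9, Gm14308 and Mmp19. Ptprs, Slamf9 and Gm14308 fell in low glucose and rose in high glucose, and Mmp19, a matrix metalloproteinase, rose in low and fell in high glucose, by effects of 0.17 and -0.15. None of the 5 passed the test of the difference, with adjusted p-values from 0.0774 to 0.118 (edgeR).

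Of the higher genes, 7 fell in low glucose and did not pass in high glucose (of all entries 14.5% fell and 13.8% rose in low glucose). Besides Ciita, H2-DMb1 and Bst2 these were Spp1 (osteopontin), the transglutaminase Tgm2, the urokinase Plau and Thbs3. Spp1 had 1416, 1463, 2078 and 1881 CPM in L_C and 1194, 1317, 1245 and 1225 CPM in L_O, against 1396, 1318, 1331 and 1386 CPM in H_C and 1602, 1588, 1446 and 1607 CPM in H_O. The groups did not overlap in either medium, and the difference was 0.61 (adjusted p = 0.0377, edgeR). A part of its exons, 18.8%, lies within another gene on the same strand. Tgm2 had 0.60 (adjusted p = 0.0294, edgeR). Plau had 0.52 without L_C replicate 4 and 0.39 with it, where that library read 244 CPM and the other L_C libraries 310.3 to 438 CPM. Thbs3 rests on few reads, with counts of 14, 21, 8 and 15 in L_C, 0 in all L_O libraries, 4, 7, 10 and 0 in H_C, and 10, 20, 14 and 15 in H_O, and no fold change is given.

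Another 9 higher genes rose in both media, more in high glucose. Besides Ccr1 they include the scavenger receptor Msr1, the integrin chain Itgam (CD11b), the phospholipase Pla2g4a that frees arachidonic acid, and the lectin receptor Clec4a1. Msr1 binds modified LDL, and had 314, 351, 361 and 390 CPM in L_C, 522, 481, 488 and 477 CPM in L_O, 217, 237, 243 and 235 CPM in H_C, and 424, 444, 401 and 404 CPM in H_O. No groups overlapped. The rise was 0.52 in low and 0.84 in high glucose, a difference of 0.32 (adjusted p = 0.045, edgeR). Pla2g4a had a difference of 0.51, Clec4a1 of 0.47 and Itgam of 0.34, but 66.3% of the 50-base words of Itgam are shared with an overlapping readthrough gene. Fgd3, Ptpn7, Padi4 and Zyx ranged from 0.29 to 0.44. Zyx, a focal adhesion protein, rested on the left-out library in its size: 162 CPM in L_C replicate 4 against 105.5 to 108 CPM in the others, and 0.46 with 16 libraries.

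The largest class of higher genes, 13, fell in both media, less in high glucose. Clic5, an intracellular chloride channel protein, had 46.5, 68.0, 45.0 and 45.2 CPM in L_C and 11.01, 9.25, 8.4 and 8.68 CPM in L_O, against 19.4, 23.7, 25.4 and 23.1 CPM in H_C and 7.32, 10.2, 8.37 and 8.39 CPM in H_O. The ox-LDL groups overlapped near 9 CPM, whereas L_C lay above H_C. Its difference was 1.09 (adjusted p = 0.0234, edgeR), against 1.04 and 0.0774 with 16 libraries. Cd14, the co-receptor for lipopolysaccharide, differed in that high glucose raised it: it had 78.2, 76.6, 77.6 and 69.1 CPM in L_C, 41.97, 49.9, 47.4 and 39.8 CPM in L_O, 135, 117, 130 and 123 CPM in H_C, and 102, 111, 94.9 and 100.2 CPM in H_O. Its groups did not overlap, and the difference was 0.48 (adjusted p = 0.0343, edgeR). Srgn, a granule proteoglycan, had 0.43 (adjusted p = 0.00756, edgeR), against 0.67 with L_C replicate 4, which read 156 CPM beside 88.4 to 94.1 CPM in the other L_C libraries. Irf8, a lineage factor of monocytes, had 0.28, the autophagy gene Dram1 0.42, and Neurl3, Cyth3, Dpep2 and the arginine transporter Slc7a2 from 0.29 to 0.42.

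Of the 12 lower entries, 6 rose in both media, less in high glucose. Beside Gas6 these were Tfrc, Camkk2, Wwp1, Megf9 and Fam213b. Tfrc, the transferrin receptor that brings iron into cells, had 264, 235, 237.5 and 190.4 CPM in L_C and 544, 563, 629 and 612 CPM in L_O, against 281, 301, 276 and 287 CPM in H_C and 539, 446, 470.0 and 500.3 CPM in H_O. No groups overlapped: H_C lay above L_C, and H_O below L_O. The rise was 1.26 in low and 0.77 in high glucose, a difference of -0.49 (adjusted p = 0.0196, edgeR), with -0.57 and 0.0774 for all 16 libraries. Camkk2, a kinase upstream of AMPK, had -0.28 and the ubiquitin ligase Wwp1 had -0.27.

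Mef2c, a transcription factor of the MADS family, was without L_C replicate 4 the lower gene called as a rise in low glucose (0.49) and a fall in high glucose (-0.33). It was not among the 5 entries with opposite calls with 16 libraries. Its levels were 20.9, 29.7, 23.9 and 35.4 CPM in L_C, 36.0, 32.7, 33.6 and 37.3 CPM in L_O, 23.8, 20.8, 27.3 and 24.6 CPM in H_C, and 18.2, 15.8, 19.1 and 23.6 CPM in H_O. L_C and L_O overlapped through L_C replicate 4, and H_C and H_O overlapped. The difference was -0.82 (adjusted p = 0.045, edgeR), against -0.67 and 0.269 with 16 libraries. Dtx4, a Notch pathway ubiquitin ligase, had -0.30 and Ccdc127 -0.29, and the exons of the latter are overlapped over 28.8% by a gene on the other strand.

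The central genes of lipid uptake and storage did not pass, and for several the interval of the difference was narrow. Cd36 had 1740, 1774, 1985 and 1611 CPM in L_C, 4524, 4636, 4683 and 4662 CPM in L_O, 1554, 1531, 1490 and 1591 CPM in H_C, and 4599, 3852, 4188 and 4422 CPM in H_O. With all 16 libraries ox-LDL raised it in both media by 1.38 and 1.47, and the difference of 0.09 had a 95% interval from -0.08 to 0.26. Plin2, the coat protein of lipid droplets, differed by -0.10 (-0.29 to 0.10), the NRF2 target Hmox1, which breaks down haem, by 0.09 (-0.09 to 0.26), and the glucose-sensitive Txnip by 0.10 (-0.05 to 0.25). Angptl4, a PPAR target that inhibits lipoprotein lipase, rose by 3.78 and 3.93, and its difference of 0.14 was less precise (-0.47 to 0.76). With 16 libraries the median difference was 0.00 over 24 lipid storage and PPAR genes, -0.02 over 28 NRF2 targets, -0.01 over 15 scavenger receptors and 0.09 over 24 sterol synthesis genes. None of those members passed, and of these lists 1 gene, Msr1, passed without L_C replicate 4.

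Cytokines were less even. Tnf had 9.40, 11.03, 9.71 and 11.04 CPM in L_C, 11.8, 8.47, 11.96 and 14.3 CPM in L_O, 5.34, 5.46, 5.33 and 5.22 CPM in H_C, and 8.93, 9.33, 11.1 and 7.87 CPM in H_O. The groups overlapped in low glucose and were apart in high glucose. With all 16 libraries its difference of 0.62 ± 0.19 did not pass (adjusted p = 0.298, edgeR). Nor did that of the monocyte chemoattractant Ccl2, at 0.85 ± 0.40 (adjusted p = 0.583, edgeR). The 29 tested cytokines and chemokines had a median of 0.43, with 24 above 0, and none passed in either fit. Of them 5 were higher at an unadjusted p under 0.05, beside 5.39% of all entries.

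Of the other lists, 27 matrix and protease genes had a median of 0.46, 18 genes of efferocytosis and complement 0.17, 15 macrophage lineage genes 0.17, 26 ERK feedback and early genes 0.25 and 36 cell cycle genes 0.21. Gas6 was the only member of these lists past the threshold with 16 libraries. Without L_C replicate 4 the calls included Spp1 and Plau among the matrix genes, C1qb, C1qc and Gas6 in the efferocytosis list, and Itgam and Irf8 among the lineage genes, whose median was then 0.06. The 13 mitochondrially encoded genes went from 0.30 to -0.24, with no member called in either fit. The 15 tested osmotic stress genes had a median of -0.06 and no call in either fit. With 16 libraries 2 of them were lower and 0 higher at an unadjusted p under 0.05, beside 3.19% and 5.39% of all entries. Whether the mannitol of L_C acted on these genes was not tested.

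**Figure D5:**
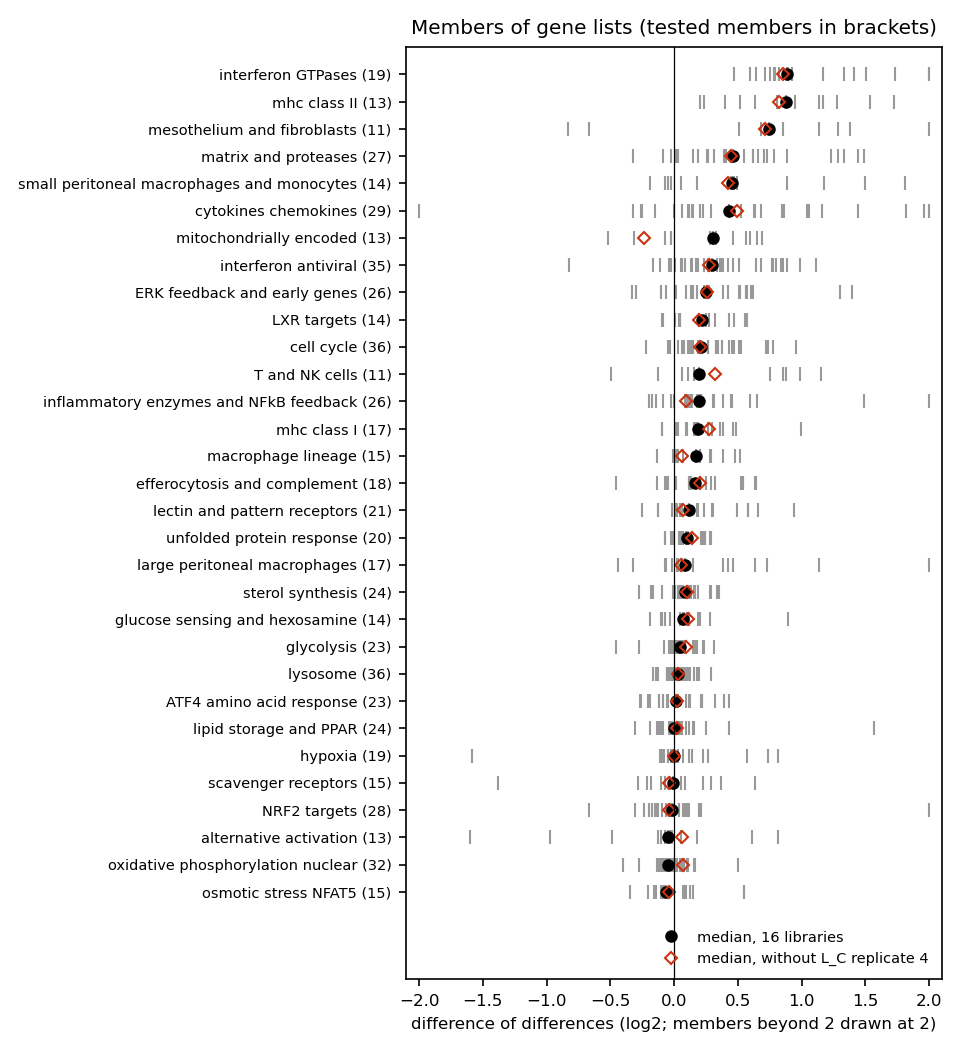
Difference of differences (log2, horizontal axis) of each tested member (grey ticks, 16 libraries) of the gene lists with 10 or more tested members; black circles are list medians with 16 libraries and red diamonds without L_C replicate 4. The interferon-induced GTPases (0.89) and MHC class II genes (0.87) have the highest medians, and mitochondrially encoded genes change side, from 0.30 to -0.24.

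The 12 T and NK cell markers in the table summed to 1088 to 1226 CPM in L_C, 579 to 600.4 CPM in L_O, 1083 to 1160 CPM in H_C and 627 to 708 CPM in H_O. Nearly all of this was the interleukin 7 receptor gene Il7r, with a mean of 868 CPM over all libraries, while 8 of the 12 averaged under 1 CPM, the T cell receptor chains Cd3e (0.615 CPM), Cd3d (0.396 CPM) and Cd3g (0.624 CPM) among them. Their median difference of differences was 0.19 over 11 tested genes, none of which passed. The mesothelial and fibroblast markers summed to 63.7 to 88.6 CPM in L_C, 26.4 to 40.9 CPM in L_O, 41.5 to 219 CPM in H_C and 40.0 to 111 CPM in H_O. The 219 CPM was H_C replicate 3 alone, and the other H_C libraries had 41.5, 44.7 and 50.5 CPM. The median difference of differences of that list was 0.74 over 11 tested genes, none of which passed. The 6 neutrophil markers in the table summed to at most 186 CPM. Most of that sum was Csf3r, with a mean of 97.4 CPM over all libraries. S100a8 averaged 3.85 CPM, and 4 of the 6 averaged under 1 CPM. Small peritoneal macrophage and monocyte genes had a median of 0.45 over 14 tested genes. Whether the share of these cells moved with the differences above was not tested.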

How the data were processed

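RNA sequencing reads of the 16 libraries were summarised by the authors as a deposited table of raw counts with 15871 entries. HISAT2, DESeq2 and mm10 are named without version or role per the submitters' processing notes; the counting tool, annotation and strand setting are not given in the sources used here. Counts were tested with edgeR 4.0.16 (R 4.3.3, limma 3.58.1): TMM scaling, filterByExpr, a mean per group, quasi-likelihood F tests with Benjamini-Hochberg adjustment, threshold 0.05. All 16 libraries shared the spread (12 residual degrees of freedom), and the fit was repeated with 15. Library totals set the counting error. Log2 CPM used a prior count of 2. The script was tested on simulated data. Alternatives used other scalings, filters, DESeq2 1.42.0, limma-voom, a replicate block and each library left out. Members, the 37 lists and the tests were chosen with earlier results of these data known. The rule for named genes gave those past the threshold in both fits, the 4 largest called in 1 fit only, the list members with the smallest p and a set of lipid and inflammatory genes; others are marked. Positions are from GENCODE M21 (mm10), and promoter windows from RefSeq (GRCm38.p6). Some genes are not reported here.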

Additional observations from a re-analysis of the deposited data

Results flagged for a closer look

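The ox-LDL effect differed between media by a direct test for Ccr1, with a log2 difference of differences of 0.65, and for Gas6, with -0.46. Of 279 groups of 4 libraries examined for the genes and library measures described, 20 had a library far from the other 3, and chance marks about 1 in 20 groups. Many of the genes examined had been chosen because they passed without L_C replicate 4. That choice favours genes in which the library stood apart, so its number of marks cannot be compared with chance. L_C replicate 4 accounted for 9 of the 20. It was high for Clec4a1 (37.7 CPM against 28.4 to 29.5), Gas6 (70.5 against 60.9 to 61.5), Mertk (224 against 189 to 190.1), Rpn1 (261 against 239 to 243), Srgn (156 against 88.4 to 94.1) and Zyx (162 against 105.5 to 108). The same library was low for Neurl3 (67.6 CPM against 93.0 to 97.7), Slc7a2 (77.1 against 86.4 to 88.2) and the ribosomal protein share of counts (1.47% against 1.90 to 1.95%). Elsewhere in L_C, replicate 2 was high for Clic5 at 68.0 CPM and Sema4a at 63.9 CPM. In L_O, replicate 1 was high for C1qb at 636 CPM and Slc7a2 at 43.2 CPM, replicate 2 was low for Abca1 at 153 CPM, and replicate 4 was low for Padi4 at 39.0 CPM. In H_C, replicate 1 was low for Bst2 at 56.1 CPM and high for Fgd3 at 43.6 CPM, while replicate 3 was high for Ccl6 at 646 CPM and Dusp6 at 9.45 CPM. In H_O, replicate 3 was low for Spp1 at 1446 CPM, against 1588 to 1607 CPM.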

How the results depend on the processing

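The number of higher and lower genes was 1 and 1 with RLE, upper-quartile or no scaling and with either other filter. It was 76 and 15 with DESeq2, 60 and 15 with limma-voom and array quality weights, and 0 and 0 with limma-voom, where 1190 had an unadjusted p under 0.05. Same-numbered libraries do not appear to be paired: their deviations correlated at -0.16 to 0.10 over 24 pairs, and 3 of 16 libraries correlated best with their own number. With the replicate block edgeR called 0 and 0, with 1099 at an unadjusted p under 0.05. Leaving out each library gave 0 to 41 higher and 0 to 12 lower, and 956 to 1422 at an unadjusted p under 0.05. Chosen after seeing the data, leaving out L_C replicate 4 gave 44 and 15 with limma-voom, 136 and 52 with DESeq2, and 45 and 11 with the gene set of the 16-library filter; of the 53 genes, 51, 52 and 52 were shared. A threshold of 0.1 gave 23 and 4 with all libraries and 83 and 29 without that one. With no scaling, ox-LDL raised 2857 genes in low and 2176 in high glucose, against 1623 and 1406. On the CPM scale the sign held for 1 of the 2 genes called with 16 libraries, Ccr1. Angptl4, which did not pass, changed direction without L_C replicate 2 (-0.04) and without H_C replicate 1 (-0.04); none of the 50 called genes with informative symbols did. Over the alternatives 8 list medians moved by more than the SD between replicates of the median level of the list, among them macrophage lineage genes, at 0.06 without L_C replicate 4 and 0.04 without H_O replicate 2, the latter setting added after seeing the data. The small number of libraries limits what can pass: the median standard error of the difference was 0.15 (log2), or 0.13 without L_C replicate 4.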
